A study of Oryctolagus cuniculus with 9 samples.

Results

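The insulin-like growth factor (IGF) genes described here are the ligands IGF1 and IGF2, their receptor IGF1R and the binding proteins IGFBP1 to IGFBP7. They were taken by symbol from a table of read counts for rabbit urethral tissue, which held all 10 of them among 28788 gene rows. Polyadenylated RNA was sequenced in 9 libraries, 3 each under the codes S9, S7 and S6, in work on a hydrogel stent for urethral repair. The labels give no treatment, time, strain, age or animal for a code, and they name no control, so each comparison is a difference between codes. They also do not say whether the libraries of a code came from separate animals, and p-values measure the spread between these libraries only. Libraries are named by code and number, for example S9_1, and values of a group are given in the order of those numbers.

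IGF1 and IGF2 are small secreted proteins that bind IGF1R, a receptor tyrosine kinase that signals to growth and survival through insulin receptor substrates, PI3-kinase and AKT. In the tissue spaces most of either ligand is held by IGF-binding proteins, which shield it from the receptor or carry it to the cell surface, and which proteases cut to set the ligand free. In connective tissue and in wounds, fibroblasts, smooth muscle cells and macrophages are known sources of these proteins. IGFBP6 is known for its preference for IGF2, and IGFBP7 is a relative that binds IGFs only weakly.

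Depth hardly differed, at 35127085 to 36832773 counts per library, and a member with any count had between 462 and 38081 of them in a library, so counting error was small beside the spread between libraries. Of the 10 members, 9 passed the filter on low counts, among 17102 genes tested. The libraries S9_4, S7_3 and S6_4 stood apart from the other 6 by low counts of mitochondrially encoded genes, with ATP6 at 21.5 to 25.9 CPM (counts scaled to a common library total, with TMM factors), against 1946 to 3258 CPM elsewhere. They are 1 library of each group, so values from the other 6 libraries are given beside the main results. The label of urethral tissue was set against its markers. All 8 smooth muscle and all 8 fibroblast markers had counts, as did the 7 markers of stratified epithelium with a row. The 5 urothelial markers summed to 69.6 to 118 CPM in S9, 70.7 to 84.6 CPM in S7 and 33.7 to 124 CPM in S6, mostly from GATA3 at 26.6 to 113 CPM. The other markers code for uroplakins and were low. UPK1A and UPK3A stayed below 3 CPM and were at 0 in S9_2, UPK2 was at 0.787 to 3.65 CPM and UPK1B at 1.23 to 22.4 CPM. The 5 hepatocyte markers summed to 1.42 to 3.33 CPM in S9, 2.26 to 8.55 CPM in S7 and 0.975 to 4.56 CPM in S6, mostly from APOB, with APOA1 and TTR at 0 in every library. The 3 skeletal muscle markers with a row summed to 0 to 5.34 CPM in S9, 0.292 to 2.10 CPM in S7 and 0.545 to 4.85 CPM in S6, with MYH1 at 0 in every library.

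Within the family IGFBP6 and IGF1R were called higher in S9 than in S6, and neither ligand was called. The IGF1R call lay just inside the threshold (edgeR adjusted p = 0.0491). IGFBP6 was 2.49-fold and IGF1R 1.78-fold higher. These were the 2 of 9 tested members called in S9 against S6 by edgeR's quasi-likelihood test at a Benjamini-Hochberg adjusted p below 0.05, where 12.4% of all tested genes were called and 6.02% were called higher. With IGFBP2, 3 of the 9 had an unadjusted p below 0.05, which is near the share of all tested genes, 31.2%. Over the 9 members the median log2 fold change was -0.15, beside -0.011 over all tested genes. No member was called in S7 against S6, where 0.111% of genes were called, or in S9 against S7, where 0% were. An unadjusted p below 0.05 was reached by IGFBP6 and IGF1R in S7 against S6, beside 17.1% of all genes, and by IGFBP3 in S9 against S7, beside 9.21%. In bulk tissue, fewer cells of a type and less RNA per cell cannot be told apart.

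**Figure D1:**
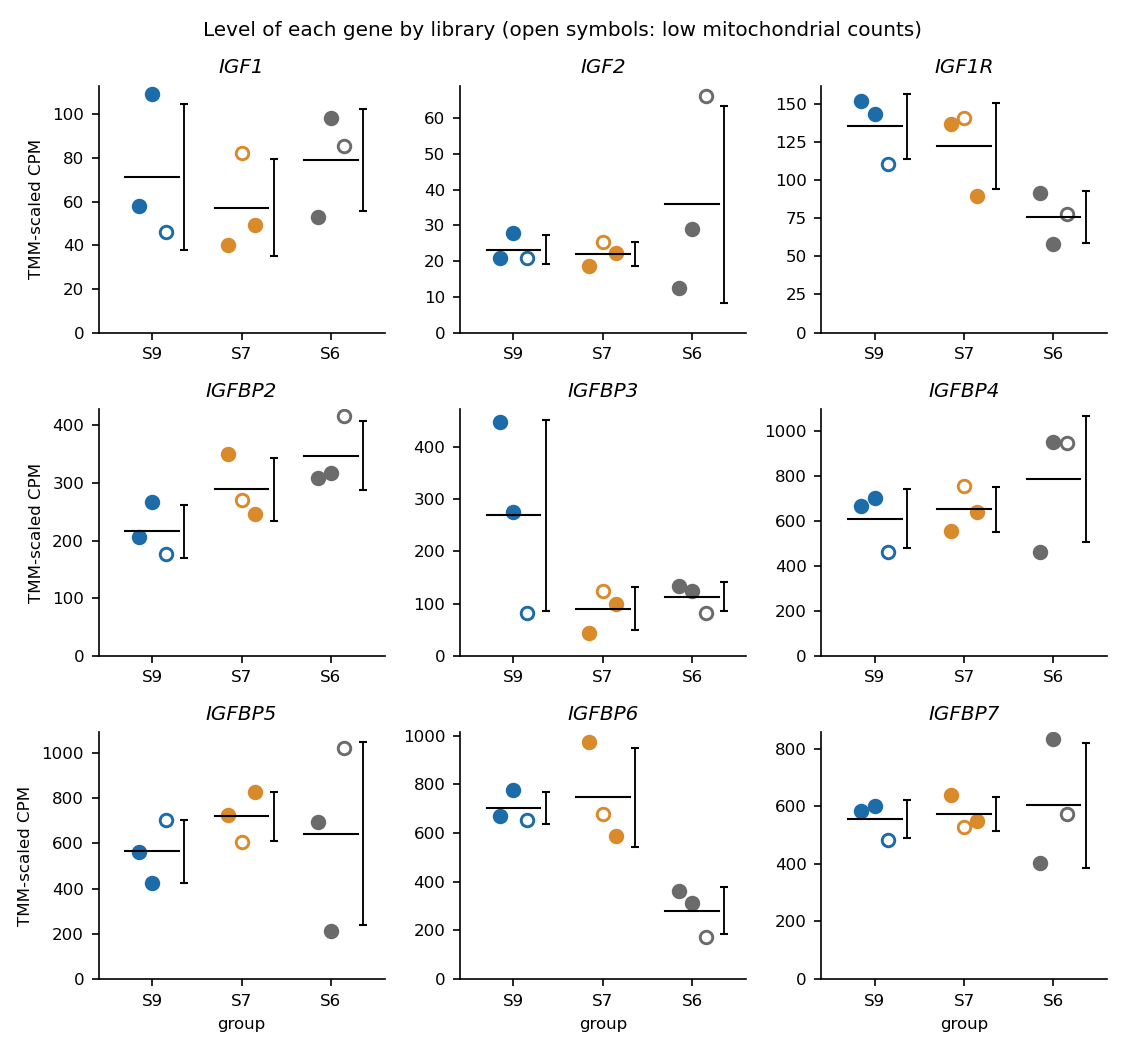
TMM-scaled CPM (vertical axis) of the 9 genes with counts in each library of S9, S7 and S6 (points), with the group mean (line) and SD (bar, n = 3), and with open symbols for the 3 libraries with low mitochondrial counts. All S9 and S7 libraries lie above all S6 libraries for IGFBP6, and the S9 libraries lie above those of S6 for IGF1R and below them for IGFBP2.

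Among the ligands, IGF1, which growth hormone induces in liver and which many mesenchymal cells make locally, was at 58.2, 109 and 46.3 CPM in the S9 libraries, at 40.2, 82.3 and 49.3 CPM in S7 and at 53.0, 98.3 and 85.6 CPM in S6. S9_2 was the highest library and S7_2 the lowest, and all 3 groups overlapped. The group means were 71.2 ± 33.4 CPM in S9, 57.3 ± 22.2 CPM in S7 and 79.0 ± 23.4 CPM in S6 (SD, n = 3 each). The log2 fold change was -0.15 (SE 0.39) for S9 over S6, -0.46 (SE 0.39) for S7 over S6 and 0.31 (SE 0.39) for S9 over S7, with edgeR adjusted p between 0.601 and 0.834. In the 6 libraries of the high mitochondrial class these values were 0.14, -0.76 and 0.90 (edgeR adjusted p from 0.479 to 0.854).

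IGF2, the ligand best known from fetal growth, was at 20.9, 28.0 and 20.8 CPM in S9, at 18.5, 25.3 and 22.3 CPM in S7 and at 12.5, 29.0 and 66.2 CPM in S6. The S9 and S7 libraries lay close together, and the S6 group held both the lowest library of the 9, S6_2, and the highest, S6_4. The S6 SD of 27.5 CPM compared with 4.13 CPM in S9 and 3.41 CPM in S7. The log2 fold change was -0.63 for S9 over S6 (95% interval -1.73 to 0.48) and -0.70 for S7 over S6 (-1.81 to 0.40), and neither was called (edgeR adjusted p = 0.419 and 0.514). Without S6_4 these values were 0.18 and 0.085, so the negative sign rested on that library. In the 6 libraries of the high mitochondrial class, which leave it out, they were 0.24 and -0.023. S6_4 also had the highest ratio of IGF2 to IGF1, 4.14 on the FPKM scale (counts scaled by gene length and library total, as the authors deposited them), against 1.27 to 2.47 in the other 8 libraries.

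IGF1R, the receptor of both ligands, was at 152, 143 and 111 CPM in S9, at 137, 141 and 89.8 CPM in S7 and at 91.7, 57.9 and 77.5 CPM in S6. All S9 libraries lay above all S6 libraries, while S7_4 fell inside the S6 range. S9 exceeded S6 by 0.84 on the log2 scale (SE 0.23, 95% interval 0.31 to 1.36, edgeR adjusted p = 0.0491), just inside the threshold. S7 over S6 gave 0.69 (SE 0.23, edgeR adjusted p = 0.182) and S9 over S7 gave 0.14 (95% interval -0.38 to 0.67, edgeR adjusted p = 0.849). The S9 call was lost with a correction for gene length, which gave 0.47 on the log2 scale (adjusted p = 0.150 by edgeR). The IGF1R gene length behind the deposited FPKM is 12476 bases, against a median of 3107 bases for tested genes, and genes of at least 8750.1 bases had a median log2 fold change of 0.29, against -0.27 for genes of up to 1057.1 bases. In the 6 libraries of the high mitochondrial class the log2 fold change was 0.98 (edgeR adjusted p = 0.129), and in the other class IGF1R was at 111 CPM in S9_4, 141 CPM in S7_3 and 77.5 CPM in S6_4. The call was also lost without S6_3 (0.69, edgeR adjusted p = 0.103), S6_4 (0.87 and 0.116), S7_2 (0.84 and 0.0590), S7_3 (0.86 and 0.0533), S9_1 (0.76 and 0.151) or S9_2 (0.79 and 0.136).

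IGFBP6 showed the clearest separation in the family. It was at 672, 777 and 656 CPM in S9, at 974, 677 and 589 CPM in S7 and at 361, 312 and 172 CPM in S6. The highest S6 library, S6_2, lay below the lowest library of S9 and of S7, whereas S9 and S7 overlapped. Group means were 702 ± 65.8 CPM in S9, 746 ± 202 CPM in S7 and 282 ± 98.3 CPM in S6 (SD, n = 3 each). S9 exceeded S6 by 1.32 on the log2 scale (SE 0.30, 95% interval 0.65 to 1.99, edgeR adjusted p = 0.0293), and IGFBP6 ranked 950 by p among the 17102 genes.

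The S7 difference was of like size but was not called. S7 exceeded S6 in IGFBP6 by 1.41 on the log2 scale (SE 0.30, 95% interval 0.73 to 2.08), with an unadjusted p of 0.001079 and an edgeR adjusted p of 0.0992. DESeq2 and limma-voom called it, with adjusted p of 0.000618 and 0.0376, and in the 6 libraries of the high mitochondrial class it was 1.21 (edgeR adjusted p = 0.291). Both comparisons use the same S6 libraries. Set directly against each other, S9 and S7 differed in IGFBP6 by -0.089 on the log2 scale (95% interval -0.75 to 0.57, edgeR adjusted p = 0.935).

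The IGFBP6 call between S9 and S6 was lost without S6_3 (1.41 on the log2 scale, adjusted p = 0.0524 by edgeR), S6_4 (1.07 and 0.0712), S9_1 (1.36 and 0.0988) or S9_2 (1.24 and 0.0970). In the 6 libraries of the high mitochondrial class the log2 fold change was 1.10 (edgeR adjusted p = 0.105), and in the other class IGFBP6 was at 656 CPM in S9_4, 677 CPM in S7_3 and 172 CPM in S6_4. Over all 17 alternatives the log2 fold change stayed between 1.07 and 1.69, and 11 of them kept the call. For IGF1R it stayed between 0.47 and 0.997, and 5 of 17 kept the call. Both calls were lost with a replicate block, at 1.44 for IGFBP6 (edgeR adjusted p = 0.0709) and 0.72 for IGF1R (0.174).

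**Figure D2:**
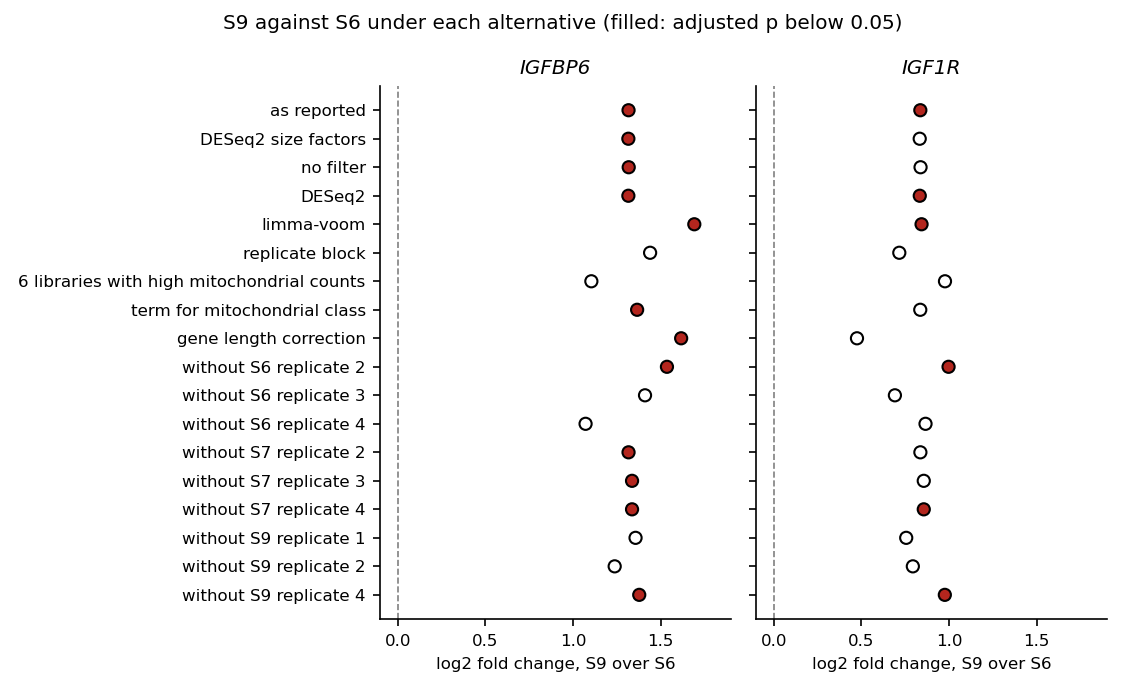
Log2 fold change of S9 over S6 (horizontal axis) for IGFBP6 and IGF1R as reported and under each of 17 alternatives (rows), filled where the adjusted p was below 0.05. All values are positive, from 1.07 to 1.69 for IGFBP6 and from 0.47 to 0.997 for IGF1R, and the calls come and go.

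IGFBP2, which carries an RGD integrin-binding motif in mammals, went the other way without passing the test. It was at 207, 266 and 176 CPM in S9, at 349.7, 270.3 and 246 CPM in S7 and at 308, 317 and 416 CPM in S6. All S9 libraries lay below all S6 libraries, and S7 overlapped both. S9 over S6 was -0.68 on the log2 scale (SE 0.21, 95% interval -1.17 to -0.20, edgeR adjusted p = 0.0674), and DESeq2 and limma-voom called it with adjusted p of 0.0295 and 0.0330. DESeq2 and limma-voom called 3958 and 4064 genes in all in this comparison, against 2115 by edgeR as reported. In the 6 libraries of the high mitochondrial class the IGFBP2 value was -0.40 (edgeR adjusted p = 0.364). It was -0.43 with the length correction (edgeR adjusted p = 0.266) and -0.74 with the replicate block (0.200). The IGFBP2 length behind the FPKM is 1350 bases. IGFBP2, IGFBP6 and IGF1R were the 3 of 9 tested members whose S9 and S6 libraries did not overlap, which held for 35.5% of all tested genes. IGFBP6 alone did so in S7 against S6, where 21.2% of genes did, and no member did so in S9 against S7, where 17.2% did.

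IGFBP3, the main carrier of IGFs in blood, varied widely within S9. It was at 447, 275 and 82.7 CPM in S9, at 44.5, 125 and 99.8 CPM in S7 and at 134, 123 and 82.0 CPM in S6. S9_1 and S9_2 were the highest of the 9 libraries, and S9_4 lay beside the lowest S6 library. S9 over S7 was 1.58 on the log2 scale (SE 0.57, 95% interval 0.28 to 2.88), with an unadjusted p of 0.02242 and an edgeR adjusted p of 0.538, and S9 over S6 was 1.25 (SE 0.57, edgeR adjusted p = 0.173). Without S9_4 the second value was 1.69 (edgeR adjusted p = 0.0429) and without S9_1 it was 0.67 (0.504). S9_4 is also the S9 library with low mitochondrial counts, and across the 6 libraries of the high mitochondrial class S9 over S6 was 1.49 (edgeR adjusted p = 0.116) and S9 over S7 was 2.32 (0.663).

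IGFBP4, a binding protein that the protease PAPPA cuts, was at 667, 702 and 463 CPM in S9, at 557, 755 and 641 CPM in S7 and at 463, 952 and 944 CPM in S6. The groups overlapped, and S6_2 lay as low as S9_4. IGFBP5, which binds to matrix and is abundant in smooth muscle and fibroblasts, was at 563, 425 and 703 CPM in S9, at 724, 606 and 825 CPM in S7 and at 692, 215 and 1021 CPM in S6. The S6 group again held the extremes, with S6_3 lowest and S6_4 highest. IGFBP7, a matrix and vessel protein, was at 583, 603 and 482 CPM in S9, at 640.1, 529 and 550.3 CPM in S7 and at 404, 834 and 572 CPM in S6. All S9 and S7 values lay within the S6 range.

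None of these 3 genes was called in any comparison. For S9 over S6 the log2 fold change was -0.36 for IGFBP4 (95% interval -1.04 to 0.31), -0.19 for IGFBP5 (-1.25 to 0.87) and -0.12 for IGFBP7 (-0.69 to 0.45). For S7 over S6 it was -0.27, 0.16 and -0.074, and for S9 over S7 -0.092, -0.35 and -0.044, with edgeR adjusted p from 0.441 to 0.966 over all 9 values. In the 6 libraries of the high mitochondrial class S9 over S6 was -0.049 for IGFBP4, 0.12 for IGFBP5 and -0.064 for IGFBP7. IGFBP1, which liver and decidua make, had 0 counts in all 9 libraries, and 3 counts would be 0.0794 to 0.0908 CPM. This limit covers counting error only.

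**Figure D3:**
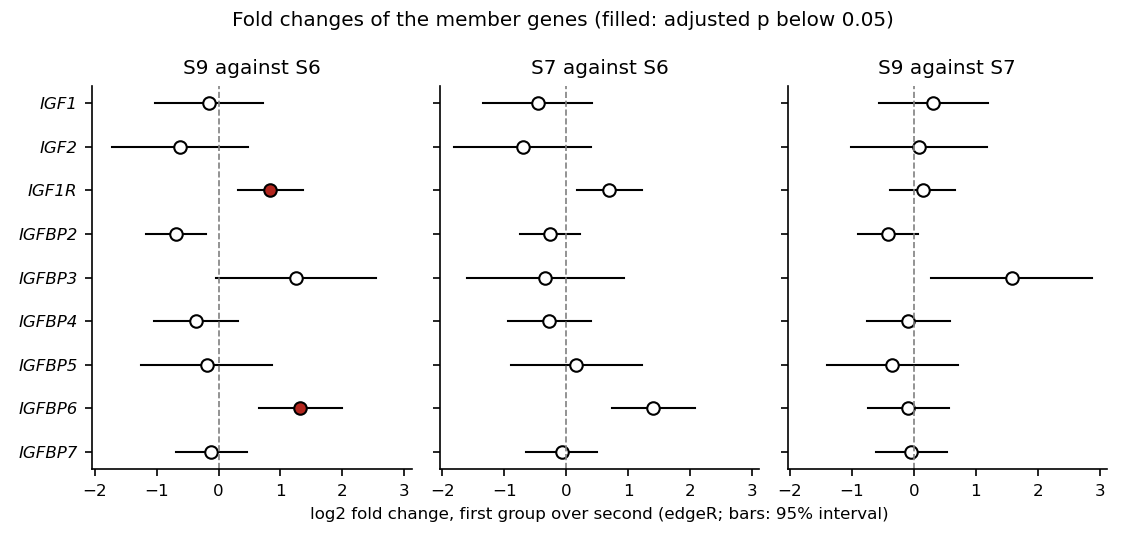
Log2 fold changes (horizontal axis) of the 9 tested members in S9 against S6, S7 against S6 and S9 against S7, with 95% intervals as bars and filled points where the edgeR adjusted p was below 0.05. IGFBP6 (1.32) and IGF1R (0.84) in S9 against S6 are the filled points.

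Levels of different genes were compared on the deposited FPKM scale, which divides by gene length. In S9 the order was IGFBP6 (701 ± 44.6 FPKM), IGFBP7 (508 ± 49.3), IGFBP4 (295 ± 56.9), IGFBP2 (164 ± 29.9), IGFBP5 (97.6 ± 26.5), IGFBP3 (71.5 ± 49.0), IGF1R (11.1 ± 1.66), IGF2 (5.82 ± 0.855) and IGF1 (3.31 ± 1.45 FPKM; SD, n = 3). IGFBP5 and IGFBP3 were the neighbours in S9 whose libraries overlapped. S7 had the same order, led by IGFBP6 at 712 ± 200.1 FPKM and IGFBP7 at 501 ± 62.6 FPKM, and no neighbours overlapped. In S6 IGFBP7 came first (527 ± 167 FPKM), then IGFBP4 (366 ± 127), IGFBP6 (270.4 ± 92.7) and IGFBP2 (256 ± 51.8 FPKM). Neighbours in this run overlapped, but IGFBP2 did not overlap IGFBP5, which came next. Further down, IGFBP5 overlapped IGFBP3. IGF2 (8.76 ± 6.97 FPKM) came before IGF1R (6.05 ± 1.55 FPKM) in S6 and overlapped it. IGFBP6 was the most abundant member in all 6 libraries of S9 and S7, and it ranked 2, 3 and 5 in the S6 libraries.

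Most of the binding proteins ranked high among the transcripts of the tissue, and the ligands did not. IGFBP4, IGFBP6 and IGFBP7 lay at or above the percentile 97.2 of tested genes by FPKM in every library, and IGFBP2 at or above 96.8. IGFBP5 lay between the percentiles 86.1 and 97.2 and IGFBP3 between 66.9 and 96.6. IGF1 lay between the percentiles 35.0 and 50.2, and IGF2 between 41.8 and 73.8. The IGF1 length behind its FPKM, taken from the ratio of count to FPKM, is 21952 bases, against 4096 bases for IGF2. On that length reads per base are few even where counts are not. Whether it is the length of the transcripts in this tissue was not tested, and FPKM comparisons of IGF1 with other genes depend on it. By counts IGF1 lay above IGF2 in every library, with a ratio of IGF2 to IGF1 of 0.236 to 0.773. The binding proteins together took 0.239% to 0.328% of all counts, and their summed FPKM was 80.8 to 342 times that of IGF1 plus IGF2.

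Among the binding-protein transcripts, the shares of IGFBP6 and IGFBP2 set groups apart, while the summed level overlapped. The summed FPKM was 1924, 1953 and 1635 in S9, 2159, 1708 and 1721 in S7 and 1321, 1690 and 1660 in S6. IGFBP6 took 35.3%, 38.5% and 41.0% of it in S9, 43.6%, 36.2% and 33.5% in S7 and 26.8%, 16.9% and 10.3% in S6, so that no S6 library reached the lowest of the other groups. IGFBP2 took 8.28%, 10.1% and 8.39% in S9, 11.9%, 11.0% and 10.7% in S7 and 17.5%, 13.1% and 19.0% in S6, and the 3 groups did not overlap. IGFBP4 took 14.0% to 17.0% in S9, 12.1% to 19.6% in S7 and 16.7% to 27.4% in S6. The IGFBP7 share hardly moved in S9, from 27.3% to 28.1%, and spanned 25.9% to 28.6% in S7 and 27.5% to 41.3% in S6. As parts of a common sum the shares depend on each other, and on the CPM scale IGFBP2 in S7 overlapped both other groups. The shares of IGFBP3, IGFBP4, IGFBP5 and IGFBP7 overlapped between all groups, and the IGFBP6 share overlapped between S9 and S7. Among the levels of all tested genes, 35.5% did not overlap between S9 and S6, 21.2% between S7 and S6 and 17.2% between S9 and S7. These shares are a description over the members and were not tested.

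**Figure D4:**
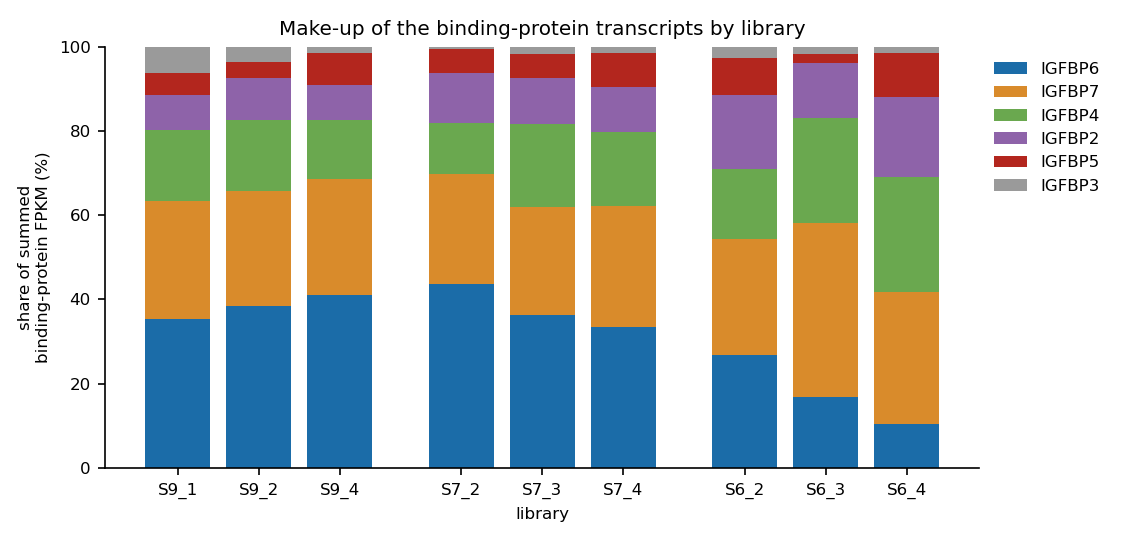
Share of each binding protein in the summed FPKM of the family (vertical axis, percent) for each library of S9, S7 and S6; IGFBP1 is at 0 and not drawn. IGFBP6 fills 33.5% to 43.6% in S9 and S7 and 10.3% to 26.8% in S6.

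A list of 53 other genes of the pathway, of which 50 had a row and 48 were tested, moved in both directions between S9 and S6. Of these 3 were called higher and 4 lower in S9, which is 14.6% of the 48 beside 12.4% of all genes (6.02% higher and 6.34% lower). The median log2 fold change of the list was 0.070, beside -0.011 over all genes. In the PI3-kinase and AKT arm, PIK3R1, the regulatory subunit of PI3-kinase, was at 369, 303 and 409 CPM in S9 and at 191, 121 and 157 CPM in S6 (1.20 on the log2 scale, SE 0.22, adjusted p = 0.0207 by edgeR). The catalytic subunit PIK3CB was lower, at 17.8, 17.8 and 20.5 CPM in S9 and at 35.3, 27.2 and 26.4 CPM in S6 (-0.66 on the log2 scale, SE 0.16, adjusted p = 0.0355 by edgeR). The other 15 tested genes of this arm were not called.

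Genes of cytokine and growth hormone signalling were called in both directions. The kinase JAK2 was at 17.4, 17.9 and 16.5 CPM in S9 and at 36.5, 33.7 and 29.2 CPM in S6 (-0.94 on the log2 scale, SE 0.17, adjusted p = 0.0196 by edgeR). The feedback inhibitor SOCS3 was at 26.0, 16.8 and 7.17 CPM in S9 and at 64.1, 124 and 74.8 CPM in S6 (-2.40 on the log2 scale, SE 0.50, adjusted p = 0.0253 by edgeR). IGF2BP2, an RNA-binding protein named for its binding of IGF2 mRNA, was at 33.9, 34.9 and 33.8 CPM in S9 and at 104, 39.6 and 91.4 CPM in S6 (-1.20 on the log2 scale, SE 0.30, adjusted p = 0.0378 by edgeR). In each of these genes all S9 libraries lay below all S6 libraries. STAT5B, a transcription factor activated by the growth hormone receptor, was higher, at 77.0, 83.4 and 71.2 CPM in S9 and at 51.1, 54.4 and 49.1 CPM in S6 (0.58 on the log2 scale, SE 0.15, adjusted p = 0.0423 by edgeR). LRP1, an endocytic receptor that binds IGFBP3, completed the higher calls with a log2 fold change of 0.68 (SE 0.18, adjusted p = 0.0426 by edgeR), and it is named after its values were seen. The LRP1 call was lost in 11 of 17 alternatives, among them the length correction (0.28 on the log2 scale, adjusted p = 0.313 by edgeR), the 6 libraries of the high mitochondrial class (0.64 and 0.201) and no filter on low counts (0.68 and 0.054). Each of the 6 calls given with CPM was lost without S6_4, without S9_1 and without S9_2, with edgeR adjusted p from 0.0547 to 0.134, and in the 6 libraries of the high mitochondrial class, with 0.0659 to 0.199. PIK3CB was also lost without S6_2, S6_3 or S7_4, IGF2BP2 without S6_2, S7_3, S7_4 or S9_4, SOCS3 without S6_3, and STAT5B without S6_2, S6_3, S7_4 or S9_4, with no filter (0.0526) and with the length correction (0.0529). With the replicate block all 7 calls were lost (edgeR adjusted p from 0.0653 to 0.154). Whether the replicate numbers pair libraries is not stated. The sign held under all of these alternatives.

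The second IGF receptor lay at the threshold. IGF2R, which takes up IGF2 for degradation, was at 60.9, 72.2 and 85.6 CPM in S9 and at 109, 111 and 156 CPM in S6 (-0.78 on the log2 scale, SE 0.22, adjusted p = 0.0502 by edgeR), and it is named after its values were seen. It was called by DESeq2 (adjusted p = 0.0159), by limma-voom (0.0137), and by edgeR with a term for mitochondrial class (0.0158), with the length correction (-1.08 on the log2 scale, 0.0335) and without S7_3 (0.0407), and it was not called in the 6 libraries of the high mitochondrial class (-0.73 and 0.0875). None of the 7 tested genes of the ternary complex and the binding-protein proteases was called, PAPPA among them, at 7.25, 4.25 and 2.30 CPM in S9 and 2.98, 2.39 and 3.22 CPM in S6. None of the 7 tested adaptors was called either. With 12.4% of all tested genes called in S9 against S6, lists this short cannot show a lack of change.

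In S7 against S6 and in S9 against S7 none of the 48 genes was called by edgeR, and 12 and 6 of them had an unadjusted p below 0.05, beside 17.1% and 9.21% of all genes. The smallest p in S7 against S6 belonged to JAK2, at 14.9, 19.0 and 20.7 CPM in S7 and 36.5, 33.7 and 29.2 CPM in S6 (-0.86 on the log2 scale, SE 0.17, adjusted p = 0.0911 by edgeR), and next came PIK3CB (-0.72 on the log2 scale, SE 0.16, adjusted p = 0.106 by edgeR). DESeq2 called both, with adjusted p of 0.000793 and 0.00532. In S9 against S7 they belonged to IGF2BP1 and PIK3R1. IGF2BP1 was at 0.185, 0.274 and 0.212 CPM in S9 and at 0.355, 9.26 and 0.654 CPM in S7, so its fold rested on S7_3. PIK3R1 was at 369, 303 and 409 CPM in S9 and at 272, 190 and 271 CPM in S7 (0.56 on the log2 scale, SE 0.22, adjusted p = 0.538 by edgeR).

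**Figure D5:**
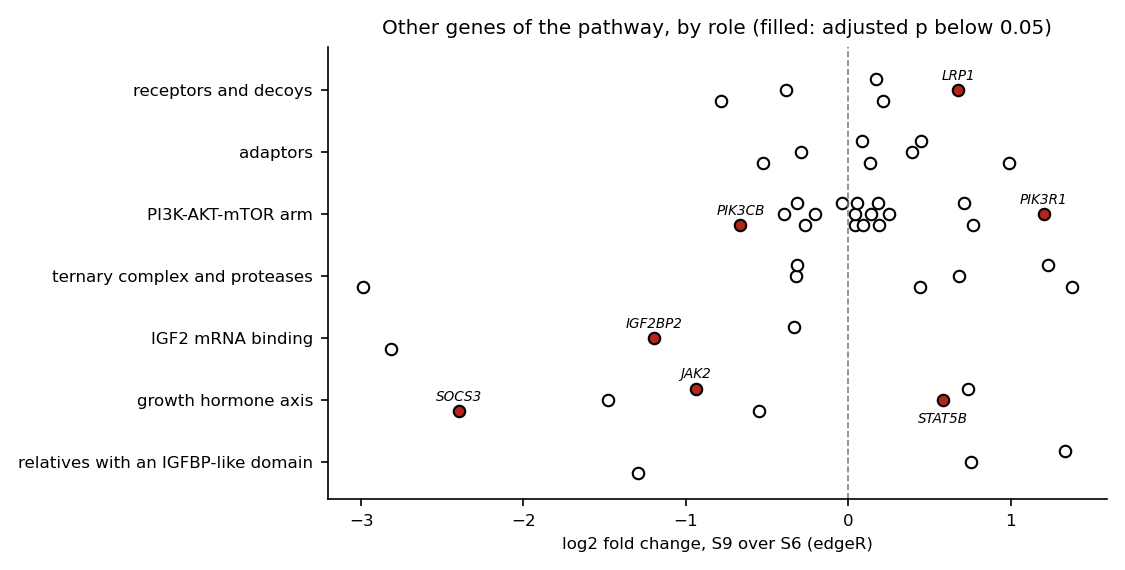
Log2 fold change of S9 over S6 (horizontal axis) for the 48 tested genes of the wider pathway in rows by role, filled and named where the edgeR adjusted p was below 0.05. The 3 higher calls are LRP1, PIK3R1 and STAT5B, and the 4 lower calls are PIK3CB, IGF2BP2, JAK2 and SOCS3.

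Markers of several cell types moved between the same groups. The summed level of 8 smooth muscle markers was 6616 to 12630 CPM in S9, 3431 to 11046 CPM in S7 and 2051 to 3634 CPM in S6, and 6 of 8 were called higher in S9 than in S6. That of 5 neutrophil markers was 434 to 757 CPM in S9, 2911 to 6517 CPM in S7 and 8287 to 15700 CPM in S6, with all 4 tested called lower. This sum came mostly from S100A12 at 381 to 10166 CPM, S100A9 at 29.2 to 4213 CPM and S100A8 at 16.3 to 1530 CPM. CSF3R was at 0.212 to 13.7 CPM, and MPO, which was not tested, reached at most 0.109 CPM. The summed level of the 7 macrophage markers with a row was 236 to 422 CPM in S9, 281 to 433 CPM in S7 and 561 to 1429 CPM in S6, with 3 called lower. None of 8 fibroblast markers was called, and their sum was 37476 to 51690 CPM in S9, 45258 to 103896 CPM in S7 and 27358 to 44557 CPM in S6. Of the other lists, 2 of 7 endothelial and 2 of 5 Schwann cell markers were called higher in S9 than in S6. In that comparison 6.02% of all tested genes were called higher and 6.34% lower. None was called among the 7 markers tested for stratified epithelium and the 5 for urothelium. The same held for skeletal muscle and fat, with 2 tested each, and for liver and red cells, with 1 each, which are too few to show a lack of change. The part of these changes in the IGFBP6 and IGF1R differences was not tested.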

How the data were processed

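The authors deposited whole-number read counts per gene, not normalized, and FPKM values of the same reads. The submitters' processing notes name fastp, HISAT2 and HTSeq, with no version. The sources used here do not state the genome build, annotation or strand setting, so reads of overlapping genes cannot be told apart and no coordinates are given. Columns were matched to samples by title. Members and lists were chosen with earlier results of these data known.

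Genes were kept by filterByExpr (minimum count 10, minimum total 15), scaled by TMM and fitted with edgeR 4.0.16 in R 4.3.3 (robust quasi-likelihood, 3 groups, 9 libraries). Each pair of groups was a contrast, with Benjamini-Hochberg adjustment over all 17102 genes and a threshold of 0.05. Levels are TMM-scaled CPM. SE and 95% intervals of log2 fold changes come from the F statistic. FPKM, on which no test was run, served to compare levels of different genes, and gene lengths were taken from the ratio of count to FPKM. The code was tested on simulated counts.

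All 10 members were found by symbol in the RefSeq table of assembly mOryCun1.1, which also gave the names of genes listed by LOC number. All members were described in every comparison. Of the pathway list, called genes were named, up to the 6 with the smallest p, or the 2 with the smallest p where none was called. A gene of that list is not reported here and is left out of its counts. No list of genes was tested as a set. The labels do not say whether same-numbered libraries pair, and correlations did not settle it. The correlation of their deviations from the group means was 0.138, 0.132 and 0.0226 between S6 and S7, -0.0649 and 0.127 between S6 and S9, and 0.0640 and 0.0201 between S7 and S9. Between libraries of different number it ran from -0.178 (S6_2 and S7_3) to 0.103 (S7_3 and S9_4, both with low mitochondrial counts). Alternatives were DESeq2 size factors, no filter, DESeq2 1.42.0, limma-voom (limma 3.58.1) with sample weights, a replicate block, the 6 libraries with ATP6 at or above 500 CPM, a term for that class, a length correction by a spline with 5 degrees of freedom, and each library left out.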

Additional observations from a re-analysis of the deposited data

How the results depend on the processing

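The count of members called in S9 against S6, 2 as reported, was 1 with DESeq2 size factors, no filter, a term for mitochondrial class or the length correction. It was 0 in the 6 libraries of the high mitochondrial class and with the replicate block, and 0 to 3 with a library left out. In S7 against S6 it was 1 with DESeq2 and with limma-voom, against 0 as reported and 0 with any library left out. In S9 against S7 it was 0 under all 17 alternatives. A group reduced to a pair is assumed to vary like the other groups.

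Calls over all genes moved more. In S9 against S6 the 2115 became 3958 with DESeq2, 4064 with limma-voom, 16 with the replicate block, 7 in the 6 libraries, and 0 (without S9_1) to 2076 with a library left out. In S7 against S6 the 19 became 1358, 308, 1 and 0 in the same order, 4 with the mitochondrial term, 11 with the length correction, and 0 to 10 with a library left out. In S9 against S7 the 0 became 130 with DESeq2, 1 in the 6 libraries, and 0 to 1 with a library left out, beside 1575 genes at an unadjusted p below 0.05 as reported. Whether the replicate numbers pair libraries is not stated, and the correlations were mixed. S6_2 and S6_3 correlated best with the S7 library of the same number (0.138 and 0.132), and S6_4 with S9_4 (0.127). Against that, S6_4 correlated better with S7_3 (0.0445) than with S7_4 (0.0226), and S6_2 better with S9_1 (0.0588) than with S9_2 (-0.0649). S6_4, S7_3 and S9_4 also share the low mitochondrial class, and the part of that class in these correlations was not tested.

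Of 680 values of single genes under alternatives, 36 changed sign, none in a gene called in that comparison. For S9 over S6, IGF1 became 0.21 with the block and 0.14 in the 6 libraries, and ran from -0.60 to 0.099 with a library left out. With the length correction IGF1 kept its sign, at -0.64 (edgeR adjusted p = 0.344). IGF2 became 0.24 in the 6 libraries (-1.03 to 0.18 with a library left out) and IGFBP5 0.12 (-0.59 to 0.33). IGFBP7 became 0.050 with limma-voom and 0.20 with the length correction (-0.34 to 0.20). For S7 over S6, IGFBP5 became -0.0017 with limma-voom (-0.25 to 0.66), and IGFBP7 0.027 with limma-voom and 0.097 with the length correction (-0.29 to 0.24), while IGF2 ran from -1.11 to 0.085. For S9 over S7, IGFBP4 became 0.0099 with the block, 0.19 in the 6 libraries and 0.017 with the length correction (-0.20 to 0.093). With limma-voom, the block and the length correction, IGFBP6 became 0.098, 0.0070 and 0.052 (-0.22 to 0.15) and IGFBP7 0.023, 0.012 and 0.11 (-0.11 to 0.066). IGF1R became -0.099 with the length correction (-0.025 to 0.29), and with a library left out IGF1 ran from -0.13 to 0.68 and IGF2 from -0.080 to 0.20. The cause of these shifts was not tested.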

Other observations

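Genes with a pattern most like a member's were taken by Pearson's r of log2 CPM over the 9 libraries, among 10938 symbol-named genes with a mean of at least 5 CPM, as a description of these libraries that shares their groups and depth. For IGFBP6 they were AXL, a receptor tyrosine kinase (r = 0.99), MFAP5, a microfibril protein (0.97), and ANTXR1, a collagen-binding membrane protein (0.97). AXL was at 230.3, 209 and 211 CPM in S9, at 275, 217 and 209 CPM in S7 and at 135, 128 and 82.7 CPM in S6. The order of group means it shares with IGFBP6 is no separate result, as AXL was chosen by its r. S9 and S7 overlapped in both genes. For IGF1R they were MTSS2 (r = 0.98), SMAD4, the shared mediator of TGF-beta and BMP signals (0.98), and the transcription factor NFATC1 (0.96). For IGFBP2 they were the creatine kinase CKB (0.94), CYB5RL (0.92) and ALG3 (0.89), and for IGFBP3 JADE3 (0.93), PPP2R3B (0.91) and ZNF518B (0.90). Spearman's rho was 0.78 to 0.93 for these genes except PPP2R3B, where it was 0.47.

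Within the family, the highest correlations over the 9 libraries were those of IGF2 with IGFBP4 (Pearson's r = 0.81, Spearman's rho = 0.90), of IGF1R with IGFBP6 (0.79 and 0.82) and of IGF1 with IGFBP4 (0.77 and 0.82). The lowest was that of IGFBP5 with IGFBP7 (-0.66 and -0.37). In the RefSeq table IGFBP2 and IGFBP5 are next to each other with 0 genes between them, as are IGFBP1 and IGFBP3. IGFBP2 and IGFBP5 had an r of 0.059 over the 9 libraries, and IGFBP1 had 0 counts in all libraries while IGFBP3 reached 447 CPM.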
